A study of Mus musculus with 10 samples.

Results

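Expression of 10 transcription factor genes of the Sox family was followed across 5 lines of mouse embryonic stem cells (ESCs) by bulk RNA sequencing. The members were Sox1, Sox2, Sox3, Sox4, Sox9, Sox11, Sox12, Sox13, Sox15 and Sox21, taken by gene symbol from tables of 21853 protein-coding genes. Each symbol occurred once in every table, and the endoderm members of the family were left out of the set. All lines carried the background of the J1 ESC line, and each was represented by 2 libraries, 10 in all. Naïve ESCs were J1 cells with the WT genotype, grown on gelatin in serum medium with leukemia inhibitory factor, the MEK inhibitor PD0325901 and the GSK3 inhibitor CHIR99021. AKO carried a CRISPR-mediated knockout of AMPK, the energy-sensing kinase whose catalytic subunit gene Prkaa1 was targeted, GKO a knockout of Gys1, the muscle isoform of glycogen synthase, and DKO both, and all 3 were derived from J1. Primed ESCs (PJ1) were WT cells maintained on Matrigel without serum, in KnockOut Serum Replacement with bFgf and Activin, so the naïve and primed lines differed in medium and matrix as well as in state. The GKO line came from single clones and AKO from sorted cells, the clone behind each library is not given in the sources used here, and a difference between clones and an effect of a knockout therefore cannot be told apart. Where nothing states that the 2 libraries of a line came from separate cultures, p-values measure only the spread between these libraries.

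Sox proteins bind DNA through the HMG box, a domain that fits into the minor groove and bends the helix, and they gain target specificity from partner proteins. In ESCs, Sox2 binds together with the POU factor encoded by Pou5f1 at composite sites in the regulatory regions of pluripotency genes. The family is divided into groups by sequence. Sox1, Sox2 and Sox3 form group B1, Sox21 belongs to the repressive group B2, Sox15 is the member of group G, Sox4, Sox11 and Sox12 form group C, Sox13 belongs to group D and Sox9 to group E.

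The HMG-box coding sequences of 5 members are shown because these genes span the patterns described here. Sox2 is the abundant member and the reference, and Sox3 is a close group B1 relative. Sox15 is the member whose DKO libraries lay above all other libraries. Sox4 and Sox11 are the pair of group C whose order differed between GKO and DKO. Each sequence is a stretch of 207 bases (69 codons) covering most of the box, aligned on a motif that all 10 members share, from the canonical GENCODE transcript on GRCm39, and lies within 1 coding exon. Sox2 is at chr3:34704691-34704897 on the plus strand, Sox3 at chrX:59936401-59936607 on the minus strand, Sox15 at chr11:69546337-69546543 on the plus strand, Sox4 at chr13:29136624-29136830 on the minus strand and Sox11 at chr12:27392057-27392263 on the minus strand. Capitals mark bases that differ from Sox2.
Sox2: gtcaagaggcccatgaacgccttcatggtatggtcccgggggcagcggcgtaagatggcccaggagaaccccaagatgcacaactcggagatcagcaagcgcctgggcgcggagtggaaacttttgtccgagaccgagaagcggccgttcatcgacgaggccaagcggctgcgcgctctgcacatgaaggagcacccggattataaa
Sox3: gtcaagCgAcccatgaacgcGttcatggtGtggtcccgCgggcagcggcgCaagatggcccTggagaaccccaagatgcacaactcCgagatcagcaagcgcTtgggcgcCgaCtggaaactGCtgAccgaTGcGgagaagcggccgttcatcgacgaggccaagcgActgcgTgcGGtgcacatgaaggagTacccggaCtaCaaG
Sox15: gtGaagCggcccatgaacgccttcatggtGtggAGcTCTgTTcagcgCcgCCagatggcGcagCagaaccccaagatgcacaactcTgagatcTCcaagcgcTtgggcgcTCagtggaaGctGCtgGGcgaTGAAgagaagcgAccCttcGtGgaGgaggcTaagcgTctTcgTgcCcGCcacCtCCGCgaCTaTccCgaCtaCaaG
Sox4: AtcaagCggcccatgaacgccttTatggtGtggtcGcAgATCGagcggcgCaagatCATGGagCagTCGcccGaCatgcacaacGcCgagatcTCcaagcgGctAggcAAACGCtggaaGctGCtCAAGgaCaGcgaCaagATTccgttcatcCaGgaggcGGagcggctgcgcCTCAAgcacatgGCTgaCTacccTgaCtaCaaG
Sox11: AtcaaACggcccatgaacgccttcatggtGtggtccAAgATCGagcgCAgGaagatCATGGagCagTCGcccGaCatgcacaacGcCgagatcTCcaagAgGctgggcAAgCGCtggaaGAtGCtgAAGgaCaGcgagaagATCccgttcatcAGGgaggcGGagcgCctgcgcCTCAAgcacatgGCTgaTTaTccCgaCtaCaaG

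Over this stretch, Sox3 shared 87.9% of its bases with Sox2, Sox15 shared 73.9%, Sox4 68.6% and Sox11 67.1%. The remaining members shared between 63.8% (Sox13) and 90.3% (Sox1). Sox4 and Sox11 had 90.3% of their bases and 94.2% of the encoded residues in common. The longest run of identical bases between the transcripts of any 2 members was 48 bases, and 0 of the 45 pairs shared a run as long as the 75-base reads given in the labels. By the annotation, 7 of the 10 members share exonic bases with a gene on the opposite strand, for example Sox2 with Gm64654, Sox15 with Mpdu1 and Sox13 with Etnk2, whereas Sox11 and Sox12 do not. The labels describe a strand-specific kit, but whether strand was used in the quantification is not given in the sources used here, so reads of such partners may be included.

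The values are TPM (transcripts scaled to a fixed sum per library), an abundance corrected for transcript length, so that levels of different genes can be set side by side. TPM keeps no record of depth, and no counting error can be given. Over the listed protein-coding genes the libraries summed to between 500162 and 578952 TPM, so these genes held an unequal part of the fixed sum. The libraries had between 10537 and 11113 genes at 1 TPM or more. Prkaa1 mRNA was at 15.5 and 16.6 TPM in the naïve libraries, at 7.24 and 6.94 in AKO, at 2.30 and 2.04 in DKO, and at 12.2 and 11.96 in GKO. Gys1 mRNA was at 11.5 and 10.8 TPM in the naïve libraries, at 9.70 and 9.98 in GKO, and at 12.1 and 11.7 in DKO, and mRNA level does not check a small insertion or deletion. The 8 naïve pluripotency markers summed to 1664 to 1702 TPM in naïve ESCs, 1714 to 1723 in AKO, 1903 to 1907 in DKO and 1863 to 1945 in GKO. In primed ESCs they summed to 137 and 139 TPM. By the test described below, 4 of the 8 were higher and 0 lower in GKO than in naïve ESCs, and 5 and 0 in DKO. Of all genes, 51.7% passed in GKO and 46.0% in DKO. The 6 primed markers summed to 49.8 to 50.4 TPM in naïve ESCs, 41.4 to 42.1 in AKO, 49.0 to 50.9 in DKO and 69.7 to 69.9 in GKO. In primed ESCs they summed to 388 and 438 TPM, so by these sums each state carried the markers of its label. Fgf5, a primed marker that was not tested, was at 10.7 TPM in the first primed library and 0.447 TPM in the second. Of the 5 primed markers tested, 1 was higher and 0 lower in GKO than in naïve ESCs, and 1 was higher and 3 lower in DKO. The primed libraries differed from each other in lineage genes: Sox17, an endoderm regulator, was at 3.04 TPM in the first and 0.303 TPM in the second, Lefty1, a Nodal antagonist, at 476.9 and 34.0 TPM, and the mesendoderm gene T at 8.97 and 0.786 TPM.

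In every line but the primed one, Sox RNA was mostly Sox2 RNA. The 10 members summed to 280 and 294 TPM in the naïve libraries, 282 to 292 TPM in AKO, 291 to 311 TPM in DKO and 295 to 296 TPM in GKO, and to 372 and 382 TPM in primed ESCs. Sox2 made up between 87.9% and 89.3% of this sum in the naïve, AKO, DKO and GKO libraries. In the primed libraries its share was 37.2% and 43.6%. The members other than Sox2 summed to 31.4 ± 0.204 TPM (SD, n = 2) in naïve ESCs, 34.8 ± 0.626 in GKO, 35.0 ± 1.87 in DKO and 225 ± 12.8 in primed ESCs. The knockout lines thus lay close to naïve ESCs in summed Sox level, and the members below differed between lines within the smaller remainder. In bulk RNA, fewer cells expressing a gene and less RNA per cell cannot be told apart.

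**Figure D1:**
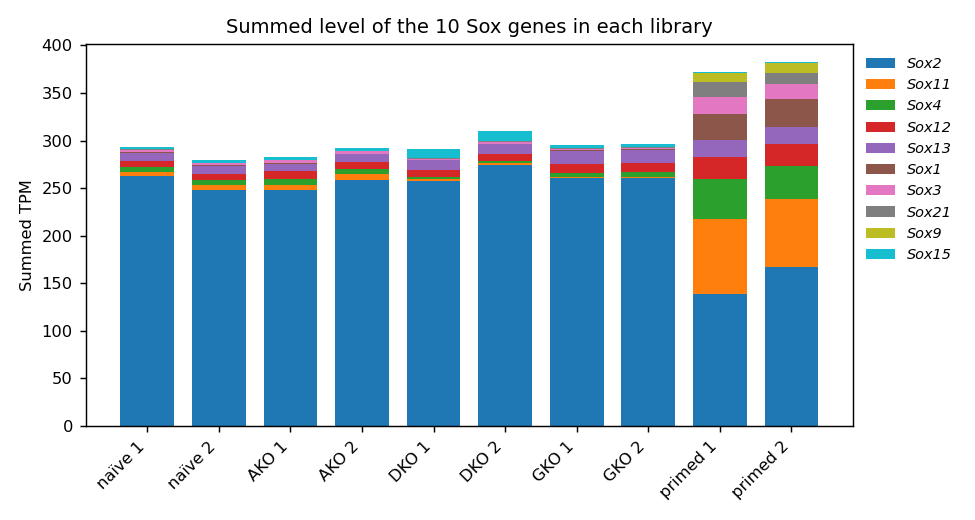
Summed level of the 10 Sox genes in each library, in TPM, with 1 bar per library and 1 colour per gene. Sox2 fills 87.9% to 89.3% of the bar in the naïve, AKO, DKO and GKO libraries and 37.2% and 43.6% in the primed libraries, whose other members sum to 215 and 234 TPM.

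All 10 members passed the filter of at least 1 TPM in at least 2 libraries, but Sox1 and Sox9 did so only through the primed libraries. Genes were tested with limma on log2(TPM + 1) across all 5 lines, and changes below are differences on this scale with their standard error (SE), which understate the change of low genes. Against naïve ESCs, 6 of the 10 members passed an adjusted p of 0.05 in GKO, 3 higher and 3 lower, where 51.7% of the 12060 tested genes did. In DKO, 7 passed, 4 higher and 3 lower, against 46.0% of all genes. When the first or second naïve library was left out, Sox12, Sox13 and Sox21 no longer passed in DKO, and fewer of all genes passed as well. Their changes were then 0.26 and 0.25 for Sox12, 0.22 and 0.19 for Sox13 and 0.59 and 0.49 for Sox21. In AKO, 0 members passed by limma, against 0.224% of all genes (27 genes), while 2 members and 1231 genes had an unadjusted p under 0.05. In primed ESCs all 10 members passed, 8 higher and 2 lower, against 80.0% of all genes. The entry of Sox1 and Sox9 rested on the same high primed values, so their calls there are no separate evidence. Of the 8 members that reach the filter without the primed libraries, 8 passed in primed ESCs, 6 higher and 2 lower. Sox1 and Sox9 passed in none of the knockout lines. The count of 6 of 10 in GKO was near the share of all genes that passed and that of 7 of 10 in DKO above it, and the difference from all genes was not tested. The median absolute change over the members was 0.39 in GKO and 0.40 in DKO, where it was 0.24 and 0.21 over all tested genes, and 2.51 in primed ESCs, where it was 0.55. With a pseudocount of 0.1 in place of 1, changes of members with low levels were larger: Sox21 stood at 1.41 in GKO, 1.26 in DKO and 1.70 in DKO against AKO, Sox3 at −1.08, −1.16 and −1.38, Sox9 and Sox15 in primed ESCs at 6.24 and −2.26, and Sox11 at −0.95 in GKO against DKO and −0.68 in the interaction described below. The comparisons with naïve ESCs share the same 2 naïve libraries.

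**Figure D2:**
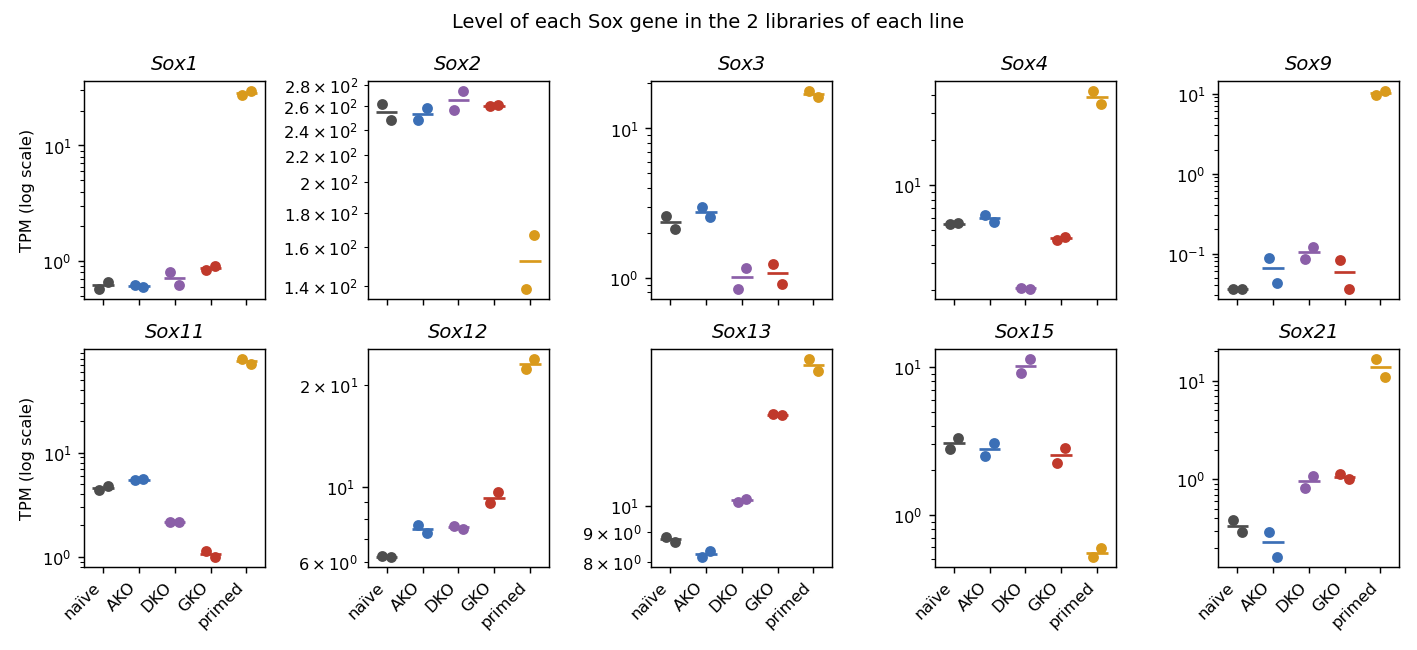
Level of each Sox gene in TPM on a log scale, with a point for each of the 2 libraries of a line and a bar for their mean. Sox2 sits between 248 and 274 TPM in every line but primed, Sox15 is highest in DKO at 9.08 and 11.3 TPM, and Sox11 is lowest in GKO at 1.15 and 0.993 TPM.

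Sox2, the group B1 factor that holds the pluripotency network together with Pou5f1, was the member with the smallest range of line means. It stood at 262 and 248 TPM in the naïve libraries, at 248 and 259 in AKO, at 257 and 274 in DKO, and at 261 and 261 in GKO. In the order of line means, from AKO through naïve ESCs and GKO to DKO, the libraries of neighbouring lines overlapped, and Sox2 ranked between 282 and 339 among all genes of a library. The change was 0.03 in GKO, with a 95% interval from −0.15 to 0.21, 0.06 in DKO, from −0.13 to 0.24, and −0.01 in AKO, from −0.19 to 0.17. Changes within these limits are compatible with these data. In primed ESCs Sox2 was at 138 and 167 TPM, below every other library, and fell by 0.74 (SE 0.08, adjusted p = 2.25e-05).

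Sox3, an X-linked group B1 gene expressed in neural progenitors, was low in every line but primed and lower still in both lines that lack Gys1. Naïve ESCs had 2.61 and 2.12 TPM and AKO 2.96 and 2.57 TPM. GKO had 1.24 and 0.909 TPM and DKO 0.843 and 1.17 TPM. GKO and DKO overlapped each other and did not overlap naïve ESCs or AKO. Sox3 fell by 0.70 in GKO (SE 0.12, adjusted p = 0.00150), and in DKO by 0.75 (SE 0.12, adjusted p = 0.00127). In primed ESCs it was at 17.8 and 16.3 TPM and rose by 2.42 (adjusted p = 1.36e-07). Sox1, the third group B1 member and an early marker of neural ectoderm, stayed below 1 TPM in the 8 libraries of the naïve, AKO, DKO and GKO lines. It was at 0.839 and 0.908 TPM in GKO, against 0.575 and 0.661 TPM in naïve ESCs, and the difference of 0.21 did not pass the threshold (adjusted p = 0.0605). In primed ESCs Sox1 was at 27.2 and 29.6 TPM and higher by 4.18, and it entered the test only through these libraries.

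Sox21, the group B2 gene and a repressor that opposes group B1 factors in neural progenitors, was higher in both lines without Gys1 than in naïve ESCs and AKO. It was listed at 0.386 and 0.289 TPM in naïve ESCs and 0.295 and 0.162 TPM in AKO, and at 1.12 and 0.999 TPM in GKO and 0.821 and 1.08 TPM in DKO. The GKO and DKO libraries overlapped each other and lay above the naïve and AKO libraries. Sox21 rose by 0.62 in GKO (SE 0.16, adjusted p = 0.0109), and in DKO by 0.54 (SE 0.16, adjusted p = 0.0229). Both calls were close to the threshold: the call in GKO was lost without the second naïve library (adjusted p = 0.0640) or the first GKO library (adjusted p = 0.0635), and the call in DKO without either naïve library (0.0636 and 0.112), without the second DKO library (0.132), with no filter on low values or with quantile normalization. In primed ESCs Sox21 was at 16.6 and 11.0 TPM and rose by 3.44 (adjusted p = 7.91e-08).

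Sox15, the group G member, was higher in both DKO libraries than in every other library. It is expressed in ESCs, and its HMG box is closer to that of Sox2 than those of groups C, D and E are. It was at 2.78 and 3.32 TPM in the naïve libraries, at 2.50 and 3.07 in AKO, and at 2.24 and 2.81 in GKO. In DKO it was 9.08 and 11.3 TPM, above every other library. The naïve, AKO and GKO libraries overlapped. Sox15 rose by 1.46 in DKO against naïve ESCs (SE 0.13, adjusted p = 5.33e-05), by 1.56 in DKO against AKO (adjusted p = 3.66e-05), and was lower by 1.67 on the log2 scale in GKO than in DKO (adjusted p = 3.01e-05). Its change in GKO against naïve ESCs was −0.20, with an interval from −0.50 to 0.10 (adjusted p = 0.229). These calls held in each alternative that kept Sox15 in the test, with a change in DKO against naïve ESCs of 1.32 to 1.71. In primed ESCs Sox15 was at 0.516 and 0.593 TPM and fell by 1.38 (adjusted p = 9.50e-06), and besides Sox2 it was the only member that was lower there.

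The group C genes, activators that act in neural and mesenchymal progenitors and during neuronal differentiation, did not move as a group. Sox11 was at 4.37 and 4.75 TPM in the naïve libraries, at 5.42 and 5.59 in AKO, at 2.14 and 2.17 in DKO, and at 1.15 and 0.993 in GKO. No line overlapped another, and the order ran from GKO through DKO, naïve ESCs and AKO to primed ESCs. Sox11 fell by 1.42 in GKO (SE 0.08, adjusted p = 3.64e-06), and in DKO by 0.82 (SE 0.08, adjusted p = 7.29e-05). Sox4 was at 5.46 and 5.56 TPM in the naïve libraries, at 6.30 and 5.67 in AKO, at 4.28 and 4.52 in GKO, and at 2.06 and 2.03 in DKO. Here the lowest line was DKO, and GKO came between DKO and naïve ESCs. Sox4 fell by 1.10 in DKO (SE 0.09, adjusted p = 4.22e-05). Its smaller fall of 0.27 in GKO (adjusted p = 0.0397) was lost without any 1 of the 4 naïve and GKO libraries (adjusted p between 0.0865 and 0.163), with no filter (0.0671) and with median-ratio scaling (0.0620). The ratio of Sox11 to Sox4 was 0.800 and 0.855 in naïve ESCs, 1.04 and 1.07 in DKO and 0.268 and 0.220 in GKO, so the pair whose boxes are 90.3% identical stood in a lower ratio in GKO than in either.

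Sox12, the third group C gene, moved the other way from Sox4 and Sox11. It was at 6.23 and 6.18 TPM in the naïve libraries, at 7.70 and 7.29 in AKO, at 7.67 and 7.49 in DKO, and at 8.93 and 9.62 in GKO. The naïve libraries were the lowest, AKO and DKO overlapped, and GKO was above them. Sox12 rose by 0.51 in GKO (SE 0.06, adjusted p = 0.000241), and in DKO by 0.25 (SE 0.06, adjusted p = 0.0121), and the call in DKO was lost without either naïve library or the first DKO library (adjusted p between 0.0553 and 0.0631). Group C summed to 16.3 ± 0.304 TPM (SD, n = 2) in naïve ESCs, 19.0 ± 0.615 in AKO, 11.8 ± 0.132 in DKO and 14.7 ± 0.551 in GKO. In primed ESCs Sox4 was at 42.4 and 34.9 TPM, Sox11 at 79.1 and 71.2 TPM and Sox12 at 22.3 and 23.8 TPM. All 3 rose there, by 2.60, 3.77 and 1.74 (adjusted p of at most 1.86e-08), and group C reached 137 ± 9.84 TPM (SD, n = 2).

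Sox13, a group D factor that binds DNA as a dimer and lacks a transactivation domain, was at 8.83 and 8.66 TPM in the naïve libraries, at 8.15 and 8.34 in AKO, at 10.2 and 10.3 in DKO, and at 14.5 and 14.4 in GKO. The libraries of no 2 lines overlapped, and GKO lay between DKO and primed ESCs, which had 18.1 and 17.3 TPM. Sox13 rose by 0.67 in GKO (SE 0.05, adjusted p = 2.34e-05), in DKO by 0.21 (SE 0.05, adjusted p = 0.0129) and by 0.94 in primed ESCs (adjusted p = 3.03e-07). The call in DKO was lost without either naïve library or the second DKO library (adjusted p between 0.0518 and 0.0769). Sox9, the group E regulator of cartilage and testis development, was listed at 0.036 to 0.122 TPM in the naïve, AKO, DKO and GKO libraries. Its level in these 8 libraries was too low to order the lines. In primed ESCs Sox9 was at 9.53 and 10.8 TPM and higher by 3.43, or by 6.24 with a pseudocount of 0.1. Sox9 entered the test only through the primed libraries.

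**Figure D3:**
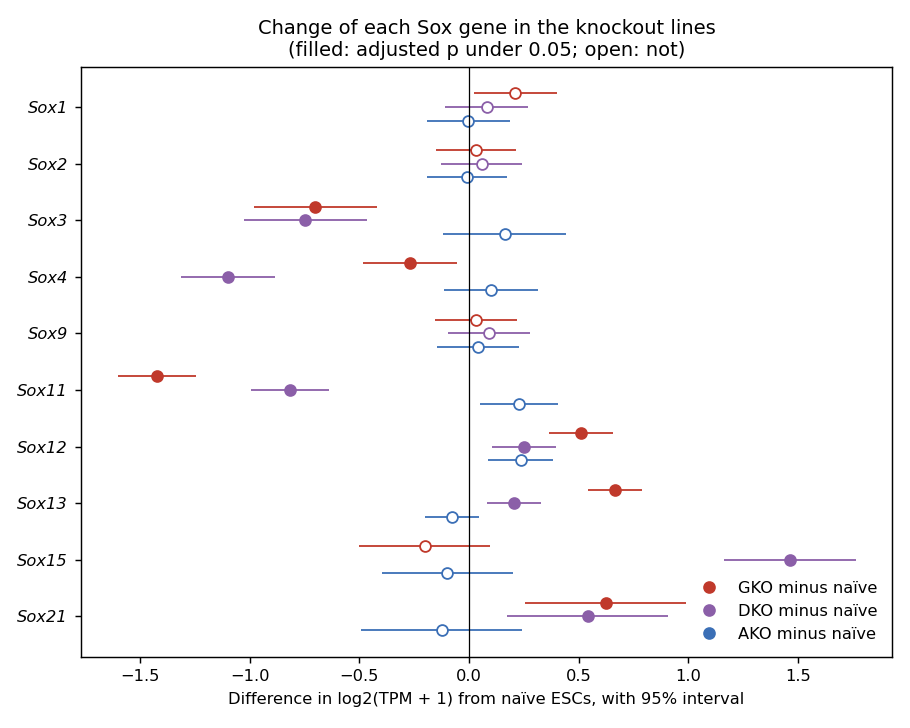
Difference in log2(TPM + 1) from naïve ESCs for each Sox gene in GKO, DKO and AKO, with bars for the 95% interval of limma; filled points passed an adjusted p of 0.05. Sox11 in GKO (−1.42) and Sox15 in DKO (1.46) lie farthest from 0, and every AKO point is open.

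AMPK loss in cells with Gys1 gave no member past the threshold. The changes of the 10 members in AKO against naïve ESCs lay between −0.12 (Sox21) and 0.24 (Sox12). Sox11 (0.23, adjusted p = 0.349) and Sox12 (0.24, adjusted p = 0.228) were the 2 members with an unadjusted p under 0.05, and in both the AKO libraries were above the naïve libraries. Over the other tested genes of their chromosomes, the median in AKO was 0.16 for Sox11 and −0.01 for Sox12. The 0 count was the same under every alternative run.

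AMPK loss in cells without Gys1, given by GKO against DKO with differences signed as GKO minus DKO, gave 5 of 10 members past the threshold, where 43.5% of all genes passed. Sox4, Sox12 and Sox13 were higher in GKO than in DKO, by 0.83 (adjusted p = 0.000197), 0.26 (0.0113) and 0.46 (0.000230). Sox11 and Sox15 were lower in GKO, with differences of −0.61 (adjusted p = 0.000384) and −1.67. The call for Sox12 was lost without the second DKO library (adjusted p = 0.0616) or the second GKO library (0.0815). Sox3 (0.05, interval from −0.23 to 0.33) and Sox21 (0.08, interval from −0.28 to 0.45), which had changed in both lines against naïve ESCs, did not pass between them.

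Gys1 loss in AMPK-deficient cells, given by DKO against AKO, gave 6 of 10 members past the threshold, 3 higher and 3 lower, where 46.3% of all genes passed. Sox3, Sox4 and Sox11 fell by 0.91, 1.20 and 1.04 on the log2 scale, and Sox13, Sox15 and Sox21 rose by 0.28, 1.56 and 0.67 (adjusted p of at most 0.00904). Genes near Sox3, Sox11 and Sox21 shifted in the same direction as these members, as given below. The Sox21 call was lost without the second AKO library (adjusted p = 0.0624) or the second DKO library (0.0658). AKO had Prkaa1 mRNA at 7.24 and 6.94 TPM and DKO at 2.30 and 2.04 TPM. Differences in Prkaa1 and in Gys1 between these lines cannot be told apart here. Whether the change with Gys1 loss differed between AMPK-intact and AMPK-deficient cells was tested as the interaction, GKO minus naïve less DKO minus AKO. It passed for 5 of 10 members, 3 positive and 2 negative, where 25.8% of all genes passed. Sox15 had the largest value, −1.77 (SE 0.19, adjusted p = 0.000380): its change was −0.20 in GKO against naïve ESCs and 1.56 in DKO against AKO. Sox4 changed by −0.27 with AMPK and by −1.20 without, an interaction of 0.93 (SE 0.13, adjusted p = 0.00159). Sox12 changed by 0.51 with AMPK and by 0.01 without, and Sox13 by 0.67 and 0.28, interactions of 0.50 (adjusted p = 0.00525) and 0.38 (adjusted p = 0.00727). Sox11 changed by −1.42 with AMPK and by −1.04 without, an interaction of −0.38 (SE 0.11, adjusted p = 0.0352) that was lost without any 1 of 7 of the 8 libraries in it, all but the first GKO library (adjusted p between 0.0597 and 0.123), and with no filter on low values (0.0559). For Sox3 (0.21, interval from −0.19 to 0.61), Sox21 (−0.04, from −0.56 to 0.48) and Sox2 (−0.04, from −0.29 to 0.22) the interaction did not pass.

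**Figure D4:**
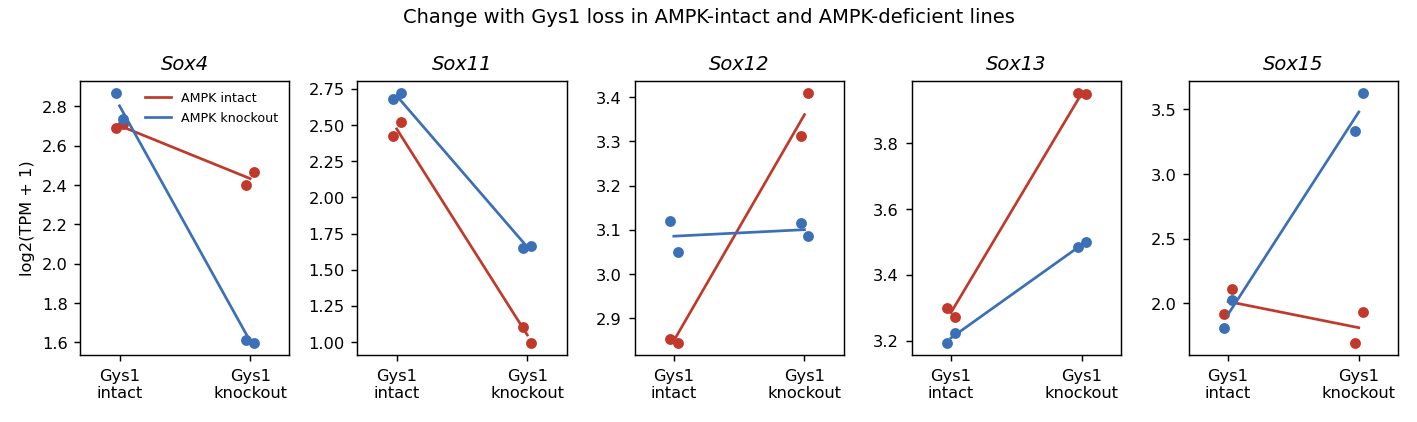
Level in log2(TPM + 1) of the 5 Sox genes with an interaction past the threshold, in lines with and without Gys1; red joins the means of naïve ESCs and GKO (AMPK intact), blue those of AKO and DKO (AMPK knockout), with a point for each library. The Sox15 lines diverge (interaction −1.77), while for Sox11 both lines fall and differ by −0.38.

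Some members lie among genes that moved with them. Tested genes starting within 10 Mb of each member were counted on GRCm39. Over all tested genes, 27.1% were lower and 24.7% higher in GKO, and 24.3% were lower and 21.7% higher in DKO. Around Sox11 (chr12:27384263-27392573, minus strand), 37 of 48 tested genes were lower and 1 was higher in GKO, with a median change of −0.54, whereas the median over the tested genes of chromosome 12, these included, was 0.02. Sox11, at −1.42, was the lowest of these genes. In DKO, 32 of the 48 were lower and 3 were higher, with a median of −0.35, beside 0.13 over the tested genes of chromosome 12. Around Sox21 (chr14:118470644-118474442, minus strand), 18 of 26 tested genes were higher and 1 was lower in GKO, with a median of 0.63 beside 0.62 for Sox21 itself, and the median over the tested genes of chromosome 14, these included, was 0.47 in GKO and 0.36 in DKO. Around Sox3 (chrX:59934972-59937036, minus strand), 18 of 34 genes were lower and 0 were higher in GKO, with a median of −0.26, and 15 were lower and 1 was higher in DKO, with a median of −0.21. Over the tested genes of the X chromosome the median was −0.05 in GKO and −0.26 in DKO, so in DKO the genes around Sox3 were no lower than the chromosome as a whole. In DKO against AKO the window medians were −0.45 for Sox11, 0.66 for Sox21 and −0.26 for Sox3, beside −1.04, 0.67 and −0.91 for the members themselves. In AKO against naïve ESCs the Sox21 window had a median of −0.27, with 4 of 26 genes lower and 0 higher. Over all tested genes, 0.158% were lower and 0.0663% higher there. The Sox11 window had a median of 0.12 in AKO, and chromosome 12 one of 0.16, beside 0.23 for Sox11. In primed ESCs the Sox21 window had a median of 1.455, with 23 of 26 genes higher and 2 lower. The chromosome 14 median was 0.54 there, beside 3.44 for Sox21, and 37.4% of all tested genes were higher. The windows of Sox11 and Sox3 had medians of −0.41 and −0.10 in primed ESCs. The part of these shifts in the changes of Sox11, Sox21 and Sox3 was not tested.

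For the other members, the windows gave the following. Sox4 (chr13:29132902-29137696, minus strand) fell in DKO among 60 genes with a median of 0.15, of which it was the lowest. Sox15 (chr11:69545826-69547553, plus strand) was the highest of 256 tested genes in its window in DKO, itself included, where the other 255 had a median of −0.01. The windows of Sox12 (chr2:152235531-152239983, minus strand) and Sox13 (chr1:133310039-133352222, minus strand) had medians of −0.03 and 0.05 in GKO. Around Sox13, 31 of 80 genes were higher and 11 lower in GKO, with an upper quartile of 0.49 beside 0.67 for Sox13, and in DKO Sox13, at 0.21, lay inside the interquartile range of its neighbours, −0.13 to 0.34. The window of Sox2 (chr3:34704554-34706610, plus strand) had a median of 0.01 in GKO. For Sox1 (chr8:12445295-12450126, plus strand) and Sox9 (chr11:112673009-112678586, plus strand), which did not pass in GKO, the medians were 0.11 and −0.02.

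**Figure D5:**
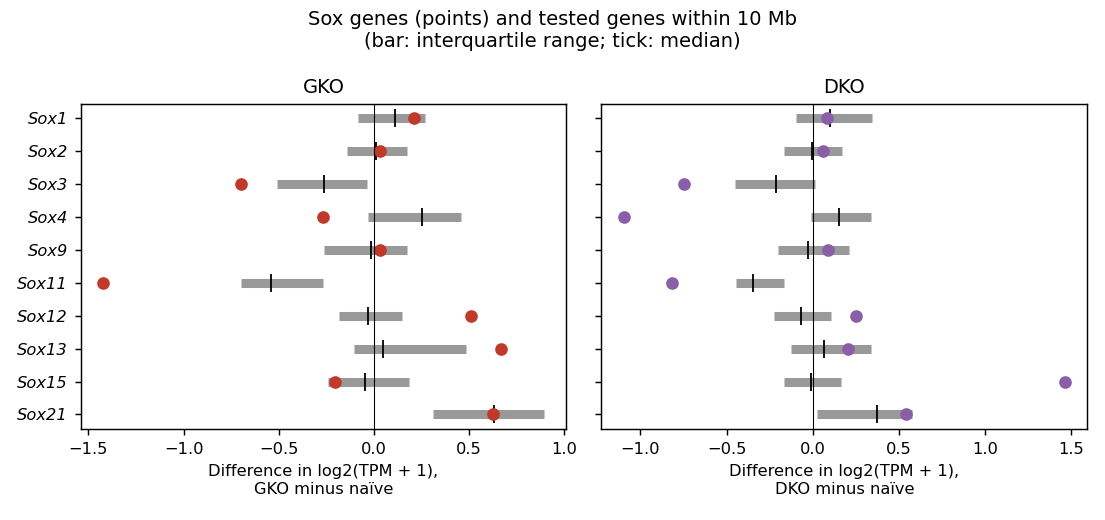
Difference in log2(TPM + 1) from naïve ESCs of each Sox gene (point) in GKO and DKO beside tested genes within 10 Mb of it (grey bar, interquartile range; tick, median). The ticks for the neighbours of Sox11 (−0.54 in GKO) and Sox21 (0.63 in GKO) are away from 0 on the side of the gene, while Sox15 in DKO, at 1.46, lies outside the bar of its neighbours.

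Most members were far higher in primed ESCs than in any other line. Of the 8 that were higher, Sox1, Sox9, Sox11 and Sox21 rose by more than 3 on the log2 scale, and Sox13 by the least. The calls of the 8 members other than Sox1 and Sox9 held when either primed library was left out, although these libraries differed in the lineage genes named above. Sox1 and Sox9 reach 1 TPM in the primed libraries only, so with 1 of them left out they would not have entered the test. Among the members themselves, the primed libraries were proportionally farthest apart for Sox21 (16.6 and 11.0 TPM).

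Of 10 further Sox genes (Sox5, Sox6, Sox7, Sox8, Sox10, Sox14, Sox17, Sox18, Sox30 and Sry), 0 passed the filter on low values. Together they summed to between 0.932 and 1.19 TPM in the naïve, AKO and DKO libraries, 1.80 and 1.82 TPM in GKO and 2.47 and 6.57 TPM in primed ESCs. Of 6 POU genes that can partner Sox factors, 3 were tested. Pou5f1, the partner of Sox2 in ESCs, was at 833 and 819 TPM in the naïve libraries, at 705 and 764 in GKO, and at 776 and 838 in DKO, and did not pass in GKO (−0.17, adjusted p = 0.125) or DKO (−0.03, adjusted p = 0.775). Its ratio to Sox2 was 3.17 and 3.30 in the naïve libraries, against 2.704 and 2.927 for GKO and 3.74 and 2.58 for the primed libraries. Pou2f1, a widely expressed member, rose by 0.20 in GKO (adjusted p = 0.0222). Pou3f1, expressed in epiblast and neural cells, rose in primed ESCs by 1.90 (adjusted p = 6.18e-06), where Pou5f1 fell by 0.81 (adjusted p = 1.92e-05), and was higher in GKO than in DKO by 0.68 (adjusted p = 0.0116).

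Of 7 genes with composite Oct-Sox elements (Pou5f1, Nanog, Fgf4, Utf1, Fbxo15, Lefty1 and Spp1), 1 rose and 1 fell past the threshold in GKO, 2 rose in DKO and 0 passed in AKO. Over all tested genes, 51.7% passed in GKO, 46.0% in DKO and 0.224% in AKO. Spp1, which encodes osteopontin, was at 389 and 381 TPM in the naïve libraries, at 524 and 483 in GKO, and at 554 and 563 in DKO, and rose by 0.39 (adjusted p = 0.000385) and 0.54 (adjusted p = 8.68e-05). Fgf4, the growth factor that drives ERK signaling in ESCs, fell by 0.22 in GKO (adjusted p = 0.0355). Nanog rose by 0.23 in DKO (adjusted p = 0.0143) and did not pass in GKO (0.12, adjusted p = 0.145). Lefty1 was at 22.0 and 22.2 TPM in the naïve libraries, 6.90 and 6.88 in GKO, and 7.60 and 9.21 in DKO. Its differences of −1.55 in GKO (adjusted p = 0.183) and −1.30 in DKO (adjusted p = 0.273) were the largest of the list and did not pass in the joint fit, whose spread takes in the unequal primed libraries. In primed ESCs 6 of the 7 fell, from −0.68 for Utf1 to −7.93 for Spp1, and Lefty1 rose by 2.48 (adjusted p = 0.0305), with the primed libraries at 476.9 and 34.0 TPM. There, 80.0% of all tested genes passed. The median change of the 7 genes was −0.12 in GKO and −0.03 in DKO, beside −0.01 over all genes in each.

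Markers of neural and other cells were followed because several members are also lineage genes. The counts below stand beside 51.7% of all tested genes past the threshold in GKO and 46.0% in DKO. Of 8 neural ectoderm markers 6 were tested, and 2 rose in GKO: Nes, an intermediate filament gene of neural progenitors, from 2.95 and 2.98 TPM to 5.95 and 6.18 TPM, and Tubb3, a neuronal tubulin gene, from 59.0 and 60.6 TPM to 96.2 and 95.3 TPM. The summed level of the 8 was 62.6 to 64.0 TPM in naïve ESCs, 51.1 to 53.0 in AKO, 70.6 to 73.9 in DKO, 102.0 to 102.6 in GKO and 128 to 164 in primed ESCs. Of 5 fibroblast markers 3 were tested and 2 rose in GKO, Thy1 and Col1a1, with a sum of 7.97 to 9.22 TPM in GKO, 2.76 to 3.33 in naïve ESCs, 3.09 to 3.16 in AKO, 2.33 to 2.43 in DKO and 9.10 to 15.3 in primed ESCs, and with Postn listed at 0 in all naïve, DKO and GKO libraries. Of 6 endoderm markers 2 were tested, of which Gata4 rose and Dab2 fell in GKO, and the sums were 1.04 to 2.15 TPM in all lines but primed, which had 2.79 and 8.76. The 5 mesendoderm markers summed to 36.5 to 37.4 TPM in naïve ESCs, 32.9 to 33.4 in AKO and 36.1 to 38.1 in GKO. Their sums were 22.5 to 23.8 TPM in DKO and 2.97 to 20.2 in primed ESCs. Of the 3 that were tested, 0 passed in GKO or DKO. Both DKO libraries nevertheless had less T RNA, 4.94 and 4.89 TPM against 15.7 and 14.5 for the naïve pair. This difference of −1.44 missed the threshold by limma (adjusted p = 0.0774). The joint fit also draws its spread for T from the primed libraries, at 8.97 and 0.786 TPM. Eomes and Mixl1 differed by −0.28 and −0.05 in DKO. The part of the markers of neural and other cells in the changes of Sox12, Sox13 and Sox21, which were higher in GKO, was not tested.

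Genes whose pattern over the 10 libraries was nearest to that of a member were found from the root mean square difference of log2(TPM + 1) centred on each gene's mean. For Sox2 these were Epb41l2, a membrane skeleton gene (0.05), Sgo1, which protects centromeric cohesion (0.06), and Tmem231, a transition zone gene of the cilium (0.06). Epb41l2 averaged 29.7 TPM in naïve ESCs, 30.6 in GKO, 29.6 in DKO and 16.9 in primed ESCs. For Sox11, the member with the widest range of line means (5.20), the nearest were Nnat, an imprinted gene of the nervous system (0.20), Id2, an inhibitor of basic helix-loop-helix factors (0.21), and Slc7a11, a cystine transporter gene (0.40). Nnat averaged 4.40 TPM in naïve ESCs, 1.13 in GKO, 1.84 in DKO and 58.2 in primed ESCs, and Id2 5.93, 1.70, 3.24 and 107.5 TPM. Id2 starts at base 25143798 of chromosome 12 and so lies inside the window around Sox11, whereas Nnat is on chromosome 2.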

How the data were processed

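The authors made the deposited values, TPM per protein-coding gene, by trimming reads with TrimGalore, aligning them with STAR and estimating expression with RSEM. Reads shared by similar transcripts were split by RSEM as estimates. TPM is scaled to a fixed sum within a library, so a strong rise lowers other genes slightly, and depth cannot be read from it. The listed genes held an unequal part of that sum between libraries, as given above. The submitters' processing notes name Trim Galore 0.6.6, STAR 2.7.9a and RSEM 1.3.3 and other genome builds than the study's methods do, so positions and sequences, taken from GENCODE on GRCm39, come from the reference, since the tables hold none. Libraries were assigned to lines from their labels, and 0 columns of other samples were present.

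The deposited TPM were put on the log2(TPM + 1) scale, and 12060 of 21853 genes were tested, those reaching 1 TPM in 2 libraries or more. Tests used limma 3.58.1 (R 4.3.3), fitting all 5 lines jointly with their own means, with an intensity trend and Benjamini-Hochberg adjustment over all tested genes within a comparison, with a threshold of 0.05. For 2 libraries against 2, no exact two-sided p below 0.333 is possible for a single value. The same code was tested on simulated data with known changes. Of the tested genes, 11560 could be placed on a chromosome. The named genes were all 10 members, the targeted genes, the tested genes of the POU, Oct-Sox and further Sox lists, and the 3 genes nearest in pattern to Sox2 and to the member with the widest range. Marker genes named from the other lists and overlapping partners were chosen after their values were seen. The members and lists were chosen with earlier results of these data known. Amino acid sequences are not shown. Alternatives were a pseudocount of 0.1, no filter, median-ratio scaling, quantile normalization, a filter at a mean of 5 TPM, no intensity trend, the lines compared alone, the replicate number as a block and each library left out.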

Additional observations from a re-analysis of the deposited data

Results flagged for a closer look

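The change with Gys1 loss differed between AMPK-intact and AMPK-deficient lines, by the interaction in limma, for 5 of 10 members, where 25.8% of all genes passed. The values were −1.77 for Sox15, 0.93 for Sox4, 0.50 for Sox12, 0.38 for Sox13 and −0.38 for Sox11, each as the log2 change with AMPK minus the change without. For Sox15 Gys1 loss went with a change past the threshold in AMPK-deficient cells and with one of −0.20, not past it, in AMPK-intact cells. For Sox11 the change was lower with AMPK (−1.42) than without (−1.04), and that interaction had an adjusted p of 0.0352, which rose above the threshold in 9 of 16 alternatives, among them no filter on low values (0.0559), the replicate block (0.0506) and 7 of the 8 runs without 1 library (0.0597 to 0.123). The clones behind the libraries are not given in the sources used here, so clone and genotype cannot be told apart. AKO and DKO also differed in Prkaa1 mRNA, as given above, which the interaction cannot separate from Gys1 loss. Groups of 2 libraries were too small to test for outliers.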

How the results depend on the processing

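Of 88 alternative counts of members called, 83 stayed within 1.5 times the count reported. A filter at a mean of 5 TPM left 6 members in the test and gave counts of 4 in DKO, 6 in primed ESCs and 3 in DKO against AKO. Of the 8294 genes tested with that filter, 4148, 6546 and 4154 passed in these comparisons. Leaving out 1 library gave fewer calls in DKO against naïve ESCs, among the members and among all genes, with the lone library of a line assumed to vary like the others. Of the values of single members, 541 kept their direction and side of the threshold, 32 lost the call, 3 gained it and 3 changed sign or came to 0. The last were Sox1 in DKO (−0.040 with quantile normalization), Sox2 in GKO (−0.0086 without the second naïve library, with 0.071 as the highest value without 1 library) and Sox9 in GKO (0 without the first GKO library, with 0.064 as the highest), none of them called. The calls gained were those of Sox1 in GKO, with a pseudocount of 0.1 (adjusted p = 0.0325), no intensity trend (0.0341) or only the lines compared (0.0260). Same-numbered libraries did not deviate together, with correlations from −0.13 to 0.08, and nothing says that the numbers pair them. With the replicate number as a block the counts were 6 in GKO, 7 in DKO, 0 in AKO, 10 in primed ESCs, 5 in GKO against DKO and 6 in DKO against AKO. The interaction had 4, since Sox11 (−0.38) had an adjusted p of 0.0506. Of all 12060 genes, 6046, 5382, 8, 9573, 5034, 5409 and 2875 passed with the block, in the same order of comparisons. The cause of these differences was not tested. With 2 libraries per line and no depth in TPM, small changes of genes below 1 TPM, such as Sox9 in the knockout lines, could not be resolved.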
